A study of Mus musculus with 4 samples.

Results

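The genes described here are 8 enzymes of cholesterol synthesis, Hmgcs1, Idi1, Mvd, Fdft1, Sqle, Lss, Cyp51 and Dhcr7, taken by symbol from the 31055 genes counted in each library. They were chosen because Lss lies in the chromosome segment that Dp2Yey mice carry in an extra copy and the other 7 lie elsewhere. The data are droplet-based single-cell RNA counts from the hippocampus of 3-month-old male mice on a C57BL/6J background. The Dp2Yey mice (n = 2) carry Dp(10)2Yey, a duplication of a segment of chromosome 10 that models part of human trisomy 21, and the WT littermates (n = 2) do not. Each mouse gave 1 library, so separate libraries are separate mice. On each of 2 consecutive preparation days 1 mouse of each genotype was processed, and the sources do not say which replicates were prepared together. Where a pair of values is given for a genotype, replicate 1 comes before replicate 2, and where 4 values are given, WT comes before Dp2Yey.

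After filtering, WT replicate 1 held 1018 cells with 2939108 UMIs (unique molecular identifiers, each marking 1 captured RNA molecule) and WT replicate 2 held 1682 cells with 6721578 UMIs. Dp2Yey replicate 1 held 1350 cells with 5008065 UMIs and Dp2Yey replicate 2 held 2199 cells with 8838437 UMIs. The shallowest library was WT replicate 1, with a median of 2081.5 UMIs per cell against 3688.5, 3386.5 and 3670.0 in WT replicate 2, Dp2Yey replicate 1 and Dp2Yey replicate 2. Pairs of libraries shared between 0 and 3 cell barcodes. The 8 enzymes had 7774 UMIs together, of which 346 were from Lss.

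Cells build cholesterol from acetyl-CoA through mevalonate, isoprenoid units, squalene and lanosterol. The transcription factor SREBP2 switches on most genes of the pathway when sterols in the endoplasmic reticulum are low, and the products feed back on it. The blood-brain barrier keeps out plasma lipoproteins, so the brain makes its own cholesterol: oligodendrocytes use it for myelin, and astrocytes pass it to neurons on lipoproteins that carry apolipoprotein E.

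Cells were grouped by clustering and named from marker genes. The 9 classes with at least 10 cells in every library were astrocyte-like (891 cells), oligodendrocyte precursor-like (467), oligodendrocyte-like (970), microglia-like (2005), neuron-like (433), endothelial-like (269), choroid plexus-like (148), ependymal-like (125) and border macrophage-like cells (111), and are called by the plain names from here on. Of the marker lists used for naming, astrocytes held UMIs of all 22 markers in every library, led by Slc1a2, and precursors of all 17, led by Ptprz1. Neurons held UMIs of all 23, led by Nrgn, and microglia of all 17, led by C1qa. The names came from these same lists, so these counts are no independent check. The genes Mal, Ermn, Opalin and Mog, which mark oligodendrocytes, were among the leading genes of the oligodendrocyte cluster. Some clusters also held markers of other cells: S100a8 and S100a9, which mark neutrophils, were among the leading genes of the macrophage cluster, the endothelial cluster held the pericyte markers Rgs5 and Vtn, and the choroid plexus cluster held Mgp, Prg4 and Igfbp6. Neurons had a median of 27.8% mitochondrial UMIs, and 156 of the 433 had no more than 20%. Of the 8 enzymes, Hmgcs1 and Idi1 were among the 2000 variable genes used for clustering. Levels by class are therefore a description with no test.

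Astrocytes had the highest summed level of the 8 enzymes in CPM (UMIs per 1000000 UMIs of the class), followed by oligodendrocytes and their precursors. Neurons had less than each of these 3 glial classes in every library. Against the larger precursor cluster alone, described below, this did not hold in Dp2Yey replicate 1. The summed level was 1156 ± 62.2 CPM in astrocytes, 564 ± 57.0 in oligodendrocytes and 401 ± 79.5 in precursors (mean ± SD, n = 4 libraries of both genotypes, here and for the levels by class below). It was 231 ± 43.4 CPM in neurons, 208 ± 57.9 in ependymal cells, 182 ± 60.7 in choroid plexus cells and 152 ± 23.2 in endothelial cells. Border macrophages had 96.8 ± 26.6 CPM and microglia 44.3 ± 5.83, so astrocytes stood 26.1-fold above microglia. Between neighbours in this order, the ranges over libraries did not overlap for astrocytes and oligodendrocytes, precursors and neurons, or border macrophages and microglia. They overlapped for every other pair, although oligodendrocytes lay above precursors within each library. The border macrophage values rested on 2, 8, 4 and 19 UMIs. The lowest, 58.1 CPM in WT replicate 1, came from 2 UMIs, so the distance from microglia is uncertain.

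The order at the top depended on the scale. Per 100 cells, oligodendrocytes held 297 ± 59.2 UMIs of the 8 enzymes, astrocytes 266 ± 59.5, precursors 172 ± 42.6, neurons 64.4 ± 15.2 and microglia 18.7 ± 3.77. Oligodendrocytes and astrocytes lay within each other's spread over the mice. Within each library oligodendrocytes were the higher class, at 209, 329, 334 and 314 against 180, 280, 317 and 286. Of all UMIs of the 8 enzymes, 38.7% came from oligodendrocytes, 31.4% from astrocytes and 10.8% from precursors. By library, oligodendrocytes gave 265, 1030, 742 and 968 UMIs and astrocytes 259, 569, 631 and 985. The order of these classes thus turned in Dp2Yey replicate 2. Microglia, 32.1% of the cells, gave 4.99%.

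**Figure D1:**
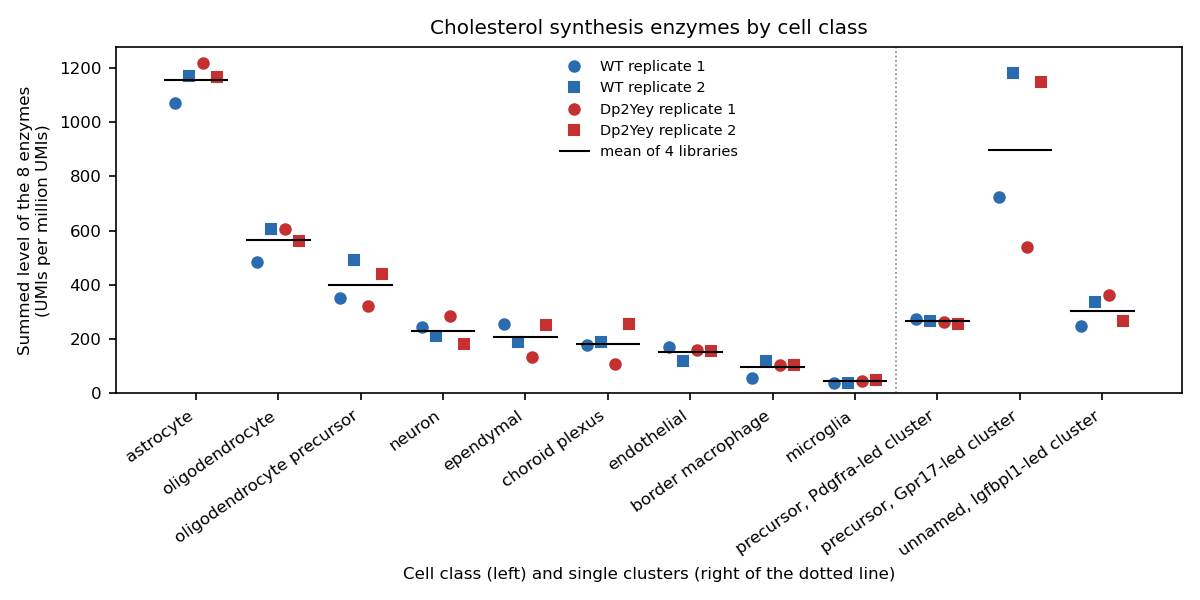
Summed level of the 8 enzymes (CPM) in each of 4 libraries, coloured by genotype, with the mean of the 4 as a black line, for 9 classes and 3 clusters. Astrocytes average 1156 CPM and microglia 44.3, and of the precursors the Gpr17-led cluster averages 898 and the Pdgfra-led cluster 265.

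The precursor class joined a pair of clusters that differed widely. The larger, of 390 cells, was led by Pdgfra, a receptor of dividing precursors, and its summed level was 275 and 266 CPM in the WT and 263 and 257 in the Dp2Yey libraries. The smaller, of 77 cells, was led by genes such as Gpr17, Bmp4 and Enpp6, which mark precursors that are turning into oligodendrocytes, and the same libraries gave 725, 1182, 540 and 1146 CPM. Every library of the Gpr17-led cluster lay above every library of the Pdgfra-led cluster, although WT replicate 1 rested on 8 cells and Dp2Yey replicate 1 on 17. Neurons, at 245, 212, 284 and 184 CPM, overlapped the Pdgfra-led cluster in range and lay above it in Dp2Yey replicate 1. Per 100 cells the Gpr17-led cluster held 502 ± 145 UMIs of the 8 enzymes and the Pdgfra-led cluster 107 ± 11, and the former is the highest of all the clusters and classes given here.

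Along the pathway, Hmgcs1 comes first: it encodes HMG-CoA synthase, which makes the substrate of HMG-CoA reductase. Its level was 333 ± 20.9 CPM in astrocytes, 202 ± 19.9 in oligodendrocytes, 104 ± 19.4 in precursors and 84.5 ± 24.8 in neurons, and lowest in microglia at 15.8 ± 3.5. Idi1 encodes the isomerase that interconverts the isoprenoid units from which squalene is built. It had 210 ± 10.4 CPM in astrocytes, 88.0 ± 17.1 in oligodendrocytes, 64.1 ± 21.5 in precursors and 32.4 ± 9.95 in neurons. For both genes the order astrocyte, oligodendrocyte, precursor matched that of the sum.

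Mvd, the decarboxylase that makes isopentenyl pyrophosphate from a mevalonate derivative, had a different order. Astrocytes had 52.4 ± 10.8 CPM, precursors 23.9 ± 11.5 and oligodendrocytes 8.67 ± 2.43. In each library the precursors lay above the oligodendrocytes, with 11.7 against 5.49 CPM and 32.4 against 10.0 in the WT and 16.5 against 8.15 and 34.9 against 11 in the Dp2Yey libraries. In neurons the level was 5.95 ± 4.09 CPM, from 0, 5, 2 and 3 UMIs, and the 0 in WT replicate 1 allows up to 32.0 CPM.

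Fdft1 encodes squalene synthase, the branch point towards sterols, and again stood highest in astrocytes, at 150 ± 5.48 CPM. Oligodendrocytes had 77.0 ± 10.0 CPM, precursors 42.9 ± 9.29 and neurons 29.7 ± 6.83. Sqle, squalene epoxidase, is a rate-limiting enzyme after HMG-CoA reductase and prepares squalene for ring closure. Astrocytes had 146 ± 25.1 CPM of Sqle and ependymal cells came next, at 135 and 71.4 CPM in the WT and 96.6 and 83.7 in the Dp2Yey libraries. Ependymal cells thus lay above oligodendrocytes (37.6 ± 10.9) in each library for Sqle, whereas for Idi1 they had 9.87 ± 8.26 CPM, below oligodendrocytes in each library. Precursors had 51.3 ± 12.3 CPM of Sqle, neurons 24.1 ± 6.73 and microglia 0.514 ± 0.441, from 1, 2, 0 and 1 UMIs.

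Lss encodes lanosterol synthase, which closes epoxysqualene into lanosterol, the first sterol of the pathway. In astrocytes it had 37.1 and 39.1 CPM in the WT and 38.6 and 37.9 in the Dp2Yey libraries, from 9, 19, 20 and 32 UMIs. Oligodendrocytes had 29.3, 26.5, 35.1 and 27.8 CPM in the same order, from 16, 45, 43 and 48 UMIs. The mean was 38.2 ± 0.841 CPM in astrocytes, 29.7 ± 3.77 in oligodendrocytes, 15 ± 8.27 in precursors and 13.7 ± 10.9 in neurons, so precursors and neurons did not differ beyond their spread. Endothelial cells had 10.7 ± 4.01 CPM, ependymal cells 6.99 ± 8.81 and microglia 3.0 ± 2.20, where WT replicate 1 had 0 UMIs, which allows up to 2.67 CPM. Border macrophages and choroid plexus cells had 0 UMIs of Lss in every library but Dp2Yey replicate 2, which had 2 and 1. Of all Lss UMIs, 43.9% came from oligodendrocytes and 23.1% from astrocytes.

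Cyp51, the demethylase that acts on lanosterol, had 148 ± 41.0 CPM in astrocytes, 86.6 ± 21.6 in oligodendrocytes, 65.0 ± 11.6 in precursors and 34.9 ± 27.8 in neurons. Dhcr7 encodes the reductase of the last step, which turns 7-dehydrocholesterol into cholesterol. It had 79.0 ± 23.3 CPM in astrocytes, 34.7 ± 14.9 in precursors, 34.4 ± 10.2 in oligodendrocytes and 6.17 ± 4.51 in neurons. The neuron value came from 0, 4, 2 and 4 UMIs, and the 0 in WT replicate 1 allows up to 32.0 CPM. Precursors and oligodendrocytes did not differ beyond their spread for Dhcr7, and astrocytes ranked highest for each of the 8 enzymes by mean CPM.

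**Figure D2:**
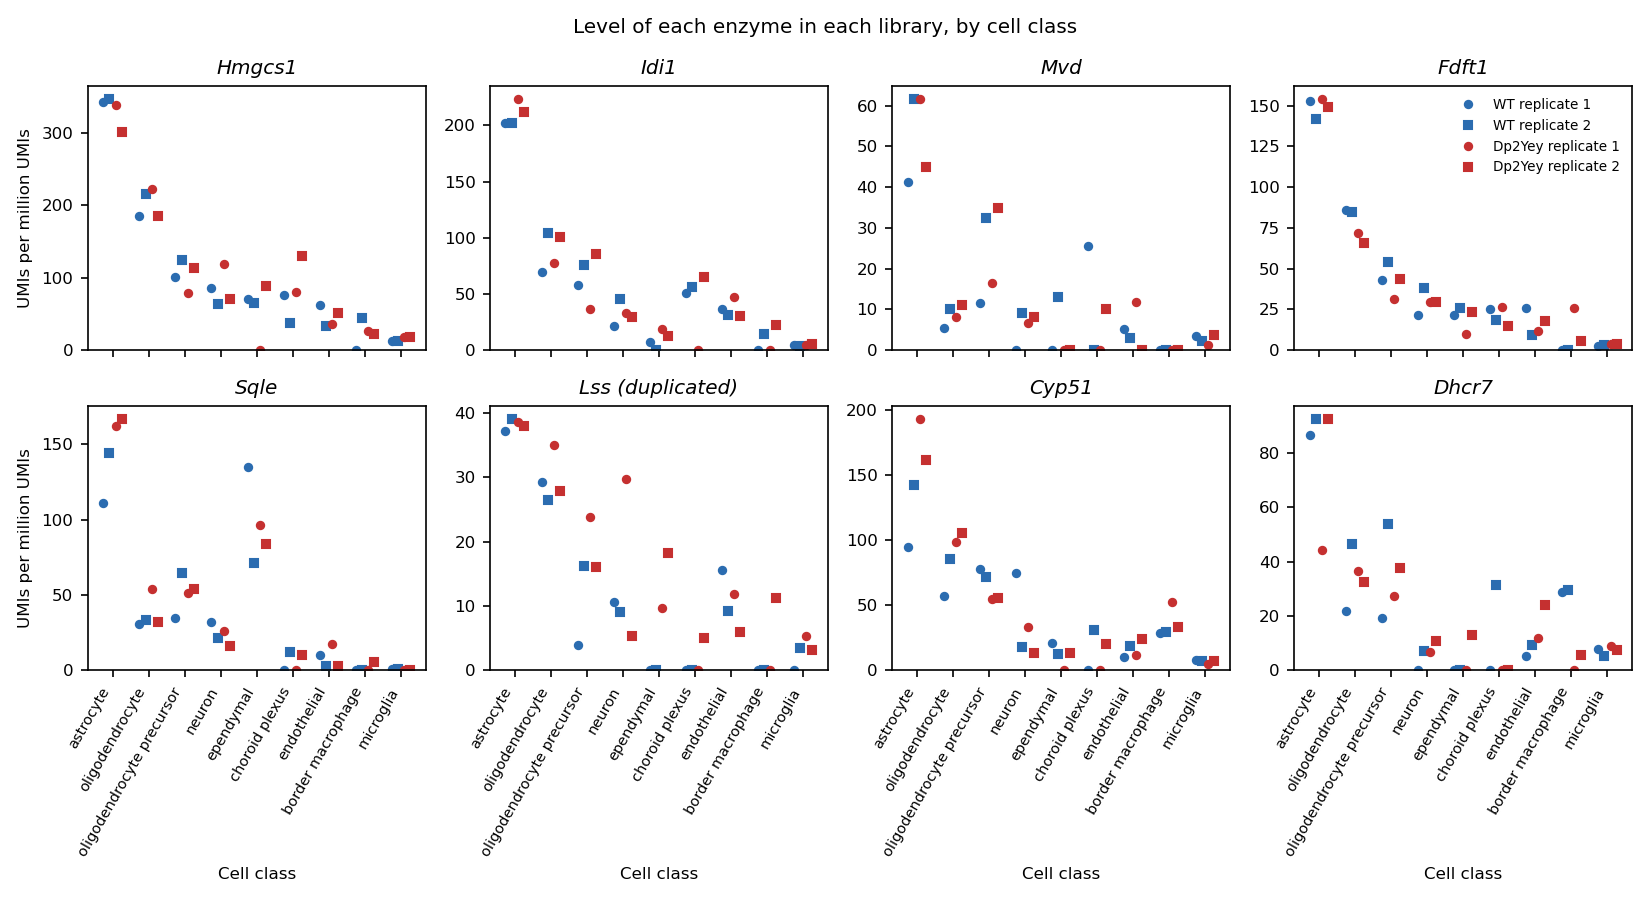
Level of each of the 8 enzymes (CPM) in each library by class, coloured by genotype, on linear axes from 0. Astrocytes have the highest mean for every enzyme, at 333 CPM for Hmgcs1 and 38.2 for Lss, and ependymal cells come next for Sqle, at 96.7.

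The class pattern of each gene was compared by Pearson correlation of log2(CPM + 10) over the 9 classes, averaged over the WT libraries, among 3388 genes with a mean of at least 50 CPM. The genes closest to Lss were 2310022B05Rik (r = 0.921), Adk (0.916), Myo6 (0.907), Insig1 (0.895), which encodes a sterol sensor of the SREBP pathway, and Rfc1 (0.876). Placed among these genes by their correlation, whatever their own level, the other enzymes ranked 17 (Fdft1), 18 (Hmgcs1), 21 (Idi1), 43 (Cyp51), 193 (Mvd), 215 (Dhcr7) and 475 (Sqle, r = 0.526) by likeness to Lss. Of the 8 enzymes, Hmgcs1 and Idi1 had a mean of at least 50 CPM themselves. Closest to the mean of those 7 were Ddhd1 (0.953), Rgma (0.930), Fasn (0.924), the fatty acid synthase, Acsl3 (0.919) and Htra1 (0.912), and Lss ranked 53 (0.834). These are correlations over 9 classes from the same mice, and Lss counts are low, so the ranks are a description.

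Promoter sequences, 250 bases before to 50 after the start, were taken from RefSeq (GRCm38.p6) to show what the enzymes share beyond their class pattern, and 6 of the 8 had an entry. Fdft1 and Sqle had none. Both strands were searched for the sterol response element TCACNCCAC, its stricter form with A before it and C for N, and CCAAT, the box bound by NF-Y, which works beside SREBP2. The 6 enzymes have 8 promoters in all, since Dhcr7 has 3. CCAAT occurred in 6 of the 8 (75%), 1 for each enzyme, against 37.4% of all 32851 promoters and 9 of 11 promoters (81.8%) of the other synthesis enzymes described further on. TCACNCCAC occurred in 1 of the 8 (12.5%) against 1.24% and 0 of the 11, and the stricter form in 0 of the 8 (0%) against 0.0913%. A match is a description of the letters in this window. Printed are Hmgcs1, which holds the sterol element from -137 to -129 relative to the start (chr13:119690101-119690400, plus strand), Lss, the duplicated gene (chr10:76531355-76531654, plus strand), and Cyp51, the next enzyme (chr5:4104648-4104947, minus strand), 5′ to 3′ with the matches in capitals, where ATTGG is CCAAT on the other strand.
Hmgcs1: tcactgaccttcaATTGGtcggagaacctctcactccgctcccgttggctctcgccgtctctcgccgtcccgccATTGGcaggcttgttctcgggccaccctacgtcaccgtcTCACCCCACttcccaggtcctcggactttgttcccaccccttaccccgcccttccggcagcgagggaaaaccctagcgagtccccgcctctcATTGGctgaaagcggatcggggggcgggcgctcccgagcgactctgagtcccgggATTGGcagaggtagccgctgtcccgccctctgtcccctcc
Lss: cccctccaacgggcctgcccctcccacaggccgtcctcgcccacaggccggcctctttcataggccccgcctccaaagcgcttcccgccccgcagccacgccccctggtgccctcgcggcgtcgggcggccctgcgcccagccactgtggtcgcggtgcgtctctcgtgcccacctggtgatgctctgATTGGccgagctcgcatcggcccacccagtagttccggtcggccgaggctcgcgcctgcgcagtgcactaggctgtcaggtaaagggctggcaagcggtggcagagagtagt
Cyp51: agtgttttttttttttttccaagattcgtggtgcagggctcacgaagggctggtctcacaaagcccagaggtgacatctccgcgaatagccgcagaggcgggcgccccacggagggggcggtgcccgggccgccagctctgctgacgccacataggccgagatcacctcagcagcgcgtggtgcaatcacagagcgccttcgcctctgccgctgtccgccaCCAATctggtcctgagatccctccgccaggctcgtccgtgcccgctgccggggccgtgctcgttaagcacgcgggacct

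The comparison of genotypes asks how the level of Lss differs with its extra copy and whether the other 7 enzymes differ with it. Summed over all cells, Lss had 10.5 CPM in WT replicate 1 (95% Poisson interval 7.17 to 15), 13.5 in WT replicate 2 (10.9 to 16.6), 20.6 in Dp2Yey replicate 1 (16.8 to 24.9) and 13.7 in Dp2Yey replicate 2 (11.4 to 16.4). These rest on 31, 91, 103 and 121 UMIs. Dp2Yey replicate 1 stood apart from the other 3 libraries, while Dp2Yey replicate 2 and WT replicate 2 lay within each other's interval and changed places after TMM normalization (13.5 and 13.7). The fitted log2 fold change of Dp2Yey over WT was 0.45 (SE 0.28, 95% interval -0.18 to 1.09, edgeR adjusted p = 1.0), and 0.42 with replicate number as a block. The interval holds both 0 and 0.58, the log2 ratio of 3 copies to 2. Without Dp2Yey replicate 1 the fold change was 0.12, without Dp2Yey replicate 2 it was 0.77, and without WT replicate 2 it was 0.68.

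Among the 13803 genes tested in all cells, edgeR called 0 at an adjusted p under 0.01, 390 had an unadjusted p under 0.05 (2.83%), and DESeq2 called 4. None of the 8 enzymes was called by either tool, against 0% of all genes with edgeR, and none had an unadjusted p under 0.05 in edgeR.

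Other genes of the duplicated segment put the Lss value in context. The segment was taken as chr10:76207222-78464975 (GRCm38, 2.26 Mb, 62 protein-coding genes), and Lss is at chr10:76531588-76557138 on the plus strand. Of the 31 segment genes tested, 29 had a fold change above 0 and 22 had an unadjusted p under 0.05, and their median (log2) was 0.57 against -0.0053 for all genes tested. edgeR called 0 of them at an adjusted p under 0.01. In 28 of the 31 both Dp2Yey libraries lay above both WT libraries, as did 12.8% of all genes tested, and the 3 that overlapped were Lss, Col6a1 and Col6a2. Such counts, here and below, use TMM-normalised values, and the levels printed are plain CPM, in which both Dp2Yey libraries lay above for Lss. Lss ranked 26 of 31 by fold change. Next above it were Col18a1 (0.47), Mcm3ap (0.48) and Pwp2 (0.51), and next below Icosl (0.41), Pdxk (0.34) and Pcbp3 (0.29). Col6a2 (-1.30) and Col6a1 (-2.02), both collagen genes and named after their values were seen, had the lowest values.

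**Figure D3:**
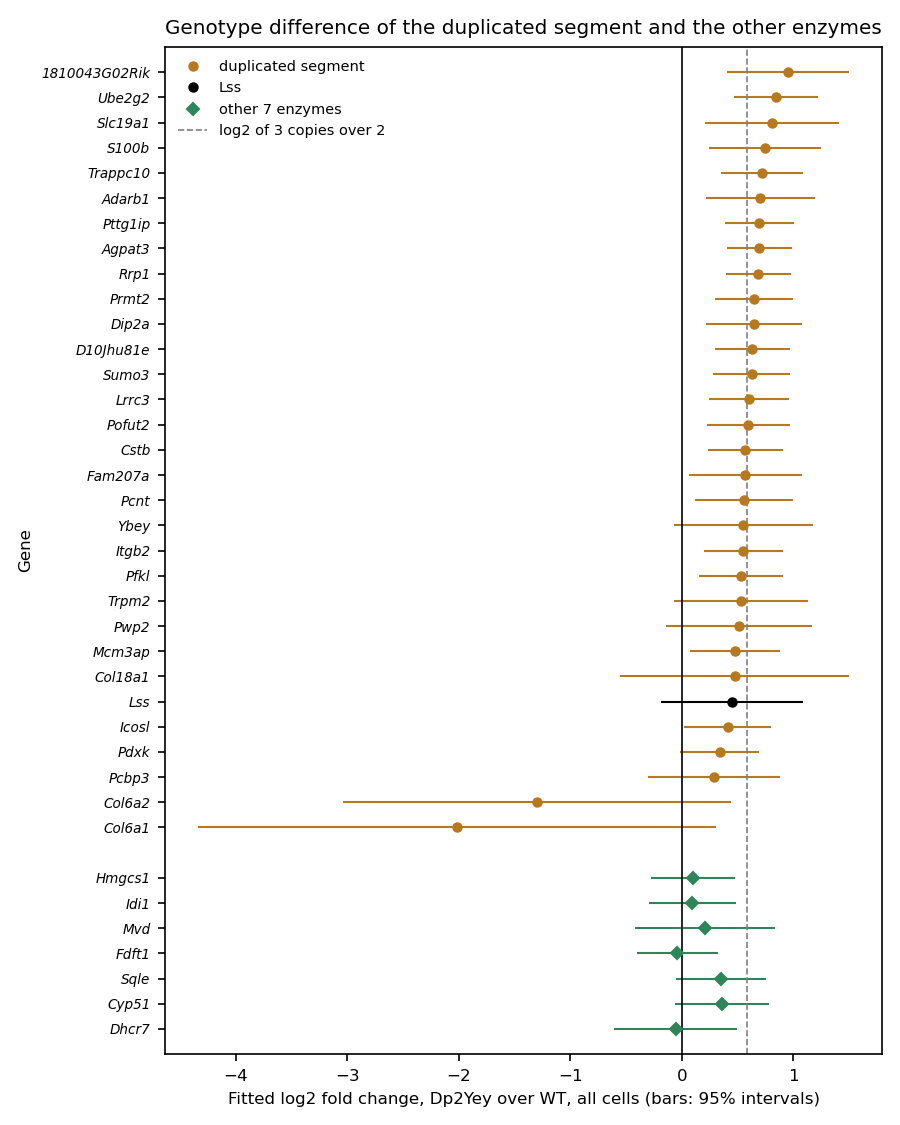
Fitted log2 fold change of Dp2Yey over WT in all cells with 95% intervals, for 31 tested genes of the duplicated segment, with Lss in black, and for the other 7 enzymes. The dashed line is the log2 ratio of 3 copies to 2, 0.58; Lss is at 0.45 and the median of the segment genes is 0.57.

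Within classes the Lss values of the genotypes lay close together in astrocytes and oligodendrocytes, the classes with the most Lss UMIs. In astrocytes the libraries spanned 37.1 to 39.1 CPM, and the fold change was -0.047 (SE 0.39, 95% interval -0.81 to 0.72). In oligodendrocytes it was 0.17 (SE 0.27, interval -0.40 to 0.75). Both intervals hold 0 and 0.58, so at this depth a level in proportion to copy number and no difference cannot be told apart. The sign in astrocytes turned without WT replicate 2 (0.023), without Dp2Yey replicate 2 (0.019) and without cells over 20% mitochondrial (0.25). In oligodendrocytes it turned with sums thinned to the smallest library (-0.051). Segment genes had a median of 0.62 in astrocytes, with 15 of 18 tested above 0, and of 0.55 in oligodendrocytes, with 22 of 22.

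In the other classes Lss had too few UMIs to be tested, and its values are given as levels. Precursors had 3.89 and 16.2 CPM in the WT and 23.9 and 16.0 in the Dp2Yey libraries, from 1, 9, 13 and 11 UMIs. Neurons had 10.7, 9.06, 29.8 and 5.40 CPM in the same order, from 1, 5, 9 and 2 UMIs. The neuron libraries differed in other ways too. Their summed astrocyte markers, 22 genes led by Slc1a2, stood at 4140.4, 5212, 9286 and 6939 CPM and their own 23 markers at 14950.4, 17886, 10407 and 21256. Their median share of mitochondrial UMIs was 30.0, 25.2, 33.9 and 18.5%, and the part of these in the Lss value was not tested. Microglia had 0, 3.49, 5.30 and 3.23 CPM. In each of these 3 classes Dp2Yey replicate 1 was the highest library and Dp2Yey replicate 2 lay below WT replicate 2, so the genotypes overlapped. The ratio of pooled CPM, Dp2Yey over WT, with its 95% counting interval, was 1.58 (0.730 to 3.71) in precursors, 1.13 (0.811 to 1.60) in oligodendrocytes, 0.993 (0.615 to 1.63) in astrocytes, 1.76 (0.597 to 5.80) in neurons and 1.67 (0.706 to 4.39) in microglia. In all cells it was 1.28 (1.02 to 1.61). These intervals count molecules and leave out the spread between mice, which the fitted interval for all cells includes.

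**Figure D4:**
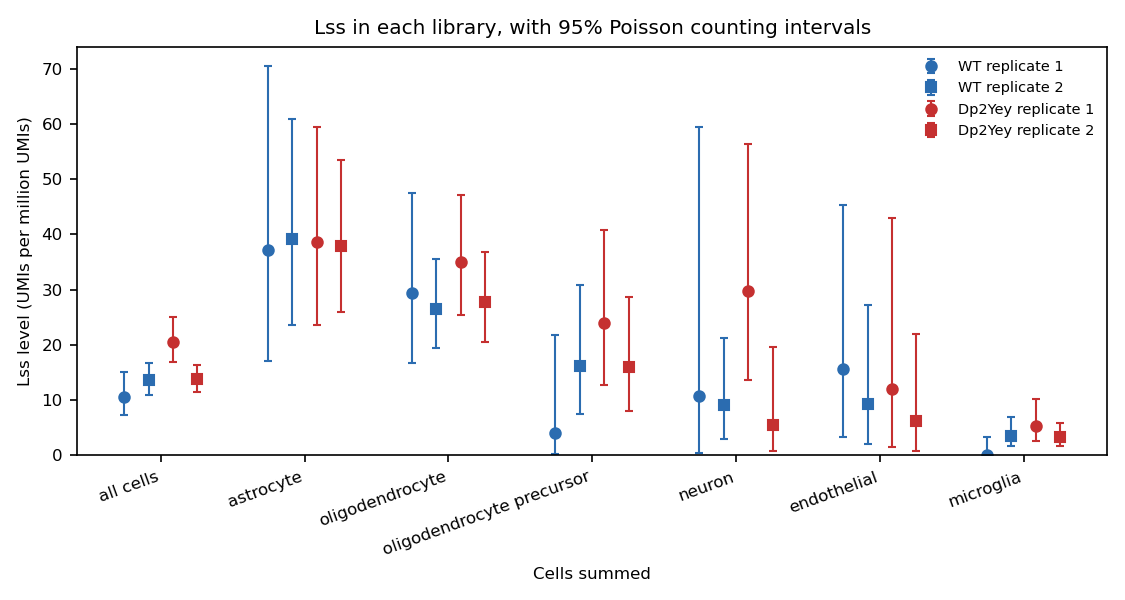
Lss level (CPM) in each library with 95% Poisson intervals, coloured by genotype, for all cells and 6 classes. In all cells Dp2Yey replicate 1 reads 20.6 CPM and the other 3 libraries 10.5 to 13.7; in astrocytes the 4 libraries read 37.1 to 39.1.

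Relative to the other enzymes in the same library, Lss made up 3.89% of the UMIs of the 8 enzymes in WT replicate 1, 3.99% in WT replicate 2, 5.60% in Dp2Yey replicate 1 and 4.23% in Dp2Yey replicate 2. In all cells both Dp2Yey libraries lay above both WT libraries, with means of 4.92 ± 0.973% and 3.94 ± 0.0709% (SD, n = 2 each). The difference of 0.971 percentage points had a two-sided exact permutation p of 0.333, the smallest that 2 libraries against 2 allow. By class the direction varied. The share was 3.47, 3.34, 3.17 and 3.25% in astrocytes, with both Dp2Yey libraries below. It overlapped in oligodendrocytes (6.04, 4.37, 5.80 and 4.96%), and both Dp2Yey libraries lay above in precursors (1.11, 3.28, 7.43 and 3.63%). The part of the class mix in the all-cell share was not tested.

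The rest of the pathway lay near 0 as a group, and no enzyme passed the test. Of the other 7 enzymes in all cells, 5 had a fold change above 0 (48.8% of all genes tested), and the median fold change (log2) was 0.10, against -0.0053 for all genes tested. For 2 of the 7, Cyp51 and Sqle, both Dp2Yey libraries lay above both WT libraries, which held for 12.8% of all genes tested. Cyp51 had 34.7 and 46.6 CPM in the WT and 57.5 and 49.4 in the Dp2Yey libraries (log2 fold change 0.36, SE 0.18, 95% interval -0.059 to 0.78). Sqle had 27.2, 29.6, 40.9 and 32.8 CPM in the same order (0.35, SE 0.18, interval -0.053 to 0.76). For both, as for Lss, Dp2Yey replicate 1 was the highest library. With the mix of classes held fixed the log2 ratio was 0.27 for Cyp51 and 0.24 for Sqle, and the median of the 7 was 0.036.

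The remaining 5 overlapped between genotypes. Hmgcs1 had 91.5 and 108 CPM in the WT and 118 and 97.9 in the Dp2Yey libraries (log2 fold change 0.10, SE 0.16). Fold changes were 0.21 for Mvd, 0.094 for Idi1, -0.040 for Fdft1 and -0.056 for Dhcr7. For these 4 the lowest SE was 0.16 (Fdft1) and the highest 0.27 (Mvd). Without WT replicate 2 the median of the 7 was 0.42, and without WT replicate 1 it was -0.022.

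Among the classes where Cyp51 could be tested, its libraries separated by genotype in 3, with higher levels in Dp2Yey astrocytes and oligodendrocytes and lower levels in Dp2Yey precursors, in each case without passing the test. In astrocytes it had 94.9 and 142 CPM in the WT and 193 and 161 in the Dp2Yey libraries (log2 fold change 0.47, SE 0.24, edgeR adjusted p = 0.999). In oligodendrocytes it had 56.7, 85.4, 98.7 and 105 CPM (0.44, SE 0.21). Precursors had 77.7, 72.0, 55.1 and 55.3 CPM (-0.43, SE 0.29). A test of whether the difference varies between classes, described below, did not call Cyp51.

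In astrocytes, where edgeR called 9 of 6591 genes (0.137%), 0 of the 8 enzymes were called by edgeR or DESeq2, and Cyp51 was the 1 enzyme with an unadjusted p under 0.05, as were 288 genes in all (4.37%). Sqle and Cyp51 had both Dp2Yey libraries above both WT libraries, against 16.5% of all genes, and Sqle read 111, 144, 162 and 167 CPM (log2 fold change 0.29). In plain CPM the genotypes also separated for Idi1 (202, 202, 224 and 212) and, with Dp2Yey lower, for Hmgcs1 (343, 348, 339 and 302). Both Dp2Yey libraries lay below both WT libraries for 16.2% of all genes. The median of the 7 was 0.015, against -0.00066 for all genes. Dhcr7 had 44.4 CPM in Dp2Yey replicate 1 and between 86.7 and 92.6 in the other 3 libraries, so the Dp2Yey libraries differed from each other by more than the genotypes did.

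In oligodendrocytes edgeR called 0 of 8613 genes (0%) and 0 of the 8 enzymes had an unadjusted p under 0.05, as did 232 genes (2.69%), and DESeq2 called none of the 8. The median of the other 7 was -0.0033, against -0.0046 for all genes, and 0.44 without WT replicate 2. Besides Cyp51, above in both Dp2Yey libraries as were 14.2% of genes, Fdft1 lay below in both, as did 15.3%. It had 86.0 and 84.8 CPM in the WT and 71.8 and 65.5 in the Dp2Yey libraries (log2 fold change -0.33, SE 0.19).

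In precursors, with 0 of 8077 genes called (0%) and 278 with an unadjusted p under 0.05 (3.44%), 1 of the other 7 enzymes had a fold change above 0, against 49.9% of all genes. Their median was -0.25 and that of all genes -0.00046, and without WT replicate 2 theirs was 0.14. None of the 7 had an unadjusted p under 0.05 or was called by DESeq2, and Cyp51 was the 1 enzyme with both Dp2Yey libraries below, as were 15.5% of genes. The Pdgfra-led and Gpr17-led clusters are mixed in this class. The Gpr17-led cluster gave 8 of 73 precursor cells in WT replicate 1, 26 of 129 in WT replicate 2, 17 of 116 in Dp2Yey replicate 1 and 26 of 149 in Dp2Yey replicate 2, and the part of this mix in the precursor values was not tested.

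Neurons had too few UMIs for 4 of the 8 enzymes to be tested, Lss, Mvd, Sqle and Dhcr7. Of the 4 tested, 1 had a fold change above 0 (51.7% of all genes), Hmgcs1, at 85.4 and 63.4 CPM in the WT and 119 and 70.3 in the Dp2Yey libraries. The median of the 4 was -0.15 (0.018 for all genes). It was -0.59 without Dp2Yey replicate 1, and 0.15, 0.26 and 0.42 without WT replicate 1, WT replicate 2 and Dp2Yey replicate 2, so its sign rested on single libraries. Without cells over 20% mitochondrial Hmgcs1 alone could be tested, at a log2 fold change of 0.52 against 0.62 with all neurons. edgeR called 0 of 5051 genes (0%), 165 had an unadjusted p under 0.05 (3.27%) and none of these was an enzyme of the 8, and DESeq2 called none of the 8.

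In microglia 3 of the 8 enzymes could be tested, and Hmgcs1 had both Dp2Yey libraries above both WT libraries, as did 14.6% of genes. It had 12.5 and 13.1 CPM in the WT and 18.8 and 18.8 in the Dp2Yey libraries (log2 fold change 0.52, SE 0.29), from 14, 30, 32 and 64 UMIs. The summed level of the 8 also separated in plain CPM (40.0, 38.8, 47.7 and 50.8). So did Idi1 and Fdft1, higher in Dp2Yey, and Sqle, lower in Dp2Yey, which had too few UMIs to be tested. Both Dp2Yey libraries lay below both WT libraries for 15.3% of genes. Dhcr7 (0.35) and Cyp51 (-0.18) overlapped, and the median of the 3 was 0.35, or 0.016 without WT replicate 2. edgeR called 1 of 9087 genes (0.011%), which was none of the 8, 0 of the 3 had an unadjusted p under 0.05, as did 3.05% of genes, and DESeq2 called none of them.

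Endothelial cells allowed a test of Hmgcs1 (log2 fold change 0.0057, SE 0.44) and ependymal cells of Hmgcs1 (-0.12, SE 0.54) and Sqle (-0.28, SE 0.40), and all overlapped between genotypes. The median in ependymal cells was -0.20, and 0.10 without WT replicate 1. Hmgcs1 had 10, 10, 0 and 34 UMIs there, so without Dp2Yey replicate 2 no fold change can be measured for it. edgeR called 0 genes in either class (0%), 4.27% and 3.99% had an unadjusted p under 0.05, and DESeq2 called none of the enzymes tested. Choroid plexus cells and border macrophages allowed no test of the 8. Among enzymes too low to be tested, plain CPM was higher in both Dp2Yey libraries for Dhcr7 in endothelial cells, Idi1 and Lss in ependymal cells, Hmgcs1 in choroid plexus cells, and Fdft1 and Cyp51 in border macrophages. It was lower in both for Dhcr7 in border macrophages. Of all genes tested, both Dp2Yey libraries lay above in 17.4% in endothelial, 15.4% in ependymal, 15.4% in choroid plexus cells and 15.3% in border macrophages. They lay below in 13.6% in border macrophages. Lss in ependymal cells had 0, 0, 1 and 7 UMIs.

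Whether a genotype difference varied between classes was tested for 10775 genes over the 9 classes, with library as a term of the model. The class sums come from 4 mice, and the test treats what is left after that term as independent between classes. With 16 residual degrees of freedom per gene it pooled the spread over all genes, so its calls are a screen. edgeR called 44 (0.408%) at an adjusted p under 0.01 and 495 had an unadjusted p under 0.05 (4.59%). Of the 8 enzymes 0 were called and 1, Dhcr7, had an unadjusted p under 0.05 (adjusted p = 0.901). The count of 44 was 15 without WT replicate 2, 74 without Dp2Yey replicate 2 and 10 with only the 6 classes of at least 25 cells in every library, with 0 of the 8 enzymes in each. DESeq2 was not run on this design.

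The wider pathway was described from 4 lists with 52 genes, of which 50 could be tested in all cells. edgeR and DESeq2 called 0 of the 50, 29 had a fold change above 0, and 1, Clu, had an unadjusted p under 0.05. Both Dp2Yey libraries lay above both WT libraries for 10 and below for 3, against 12.8% and 14% of all genes tested.

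Of the 13 other synthesis enzymes, all tested, 11 had a fold change above 0, and the median (log2) was 0.12. The values farthest from 0 were those of Tm7sf2 (0.56), a sterol reductase, Fdps (0.22), which makes farnesyl pyrophosphate, the substrate of squalene synthase, and Nsdhl (0.20), which acts after Cyp51. Tm7sf2 had 4.42 and 6.55 CPM in the WT and 7.59 and 9.16 in the Dp2Yey libraries, and with the mix of classes held fixed the genotypes overlapped (0.42). In oligodendrocytes the median of this list was 0.15 over 12 tested genes and in precursors -0.15 over 12.

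Regulators of the SREBP pathway had a median of 0.0034 over the 11 that could be tested, with 6 above 0. Farthest from 0 were Nr1h3 (0.38), which encodes the oxysterol receptor LXR alpha, Gpr146 (-0.25), a receptor, and Insig2 (0.21), which holds SREBP in the endoplasmic reticulum.

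Genes of cholesterol uptake, transport, storage and turnover had a median of -0.024 over 18 of 19, with 8 above 0. Clu, an apolipoprotein secreted by astrocytes, had 709 and 711 CPM in the WT and 874 and 1050 in the Dp2Yey libraries (log2 fold change 0.43). With the mix of classes held fixed, the same libraries gave 705, 854, 819 and 964 CPM, and the genotypes overlapped. Within classes Clu overlapped in astrocytes (log2 fold change 0.11), while oligodendrocytes had 22.0 and 32.4 CPM in the WT and 58.7 and 79.4 in the Dp2Yey libraries (1.25, edgeR adjusted p = 0.208). Clu is an astrocyte marker, and astrocytes had 6126, 7834, 7039 and 8064 TMM-normalised CPM. The part of astrocyte RNA in the oligodendrocyte value was not tested. Neurons had 352, 431, 870 and 657 CPM (1.14), and the summed astrocyte markers given above for neurons were also higher in both Dp2Yey libraries. Their part in the Clu value was not tested. In the other classes tested, both Dp2Yey libraries lay above both WT libraries for Clu in precursors (0.17) and endothelial cells (0.52). They lay below in choroid plexus cells (-0.66), and the genotypes overlapped in microglia (-0.12) and ependymal cells (0.11). Lcat (0.33), which esterifies cholesterol on lipoproteins, and Lrp8 (-0.29), a receptor for apolipoprotein E, came next. With the mix of classes held fixed Lcat was 0.0080, at 31.6, 28.8, 28.8 and 31.9 CPM, and Lrp8 was -0.23. In astrocytes Lcat was -0.078. Ch25h could not be tested. Fatty acid synthesis genes had a median of 0.023 over 8 of 8, with 4 above 0, led by the desaturase Fads2 (0.65, or 0.43 with the mix held fixed, where the genotypes overlapped), acetyl-CoA carboxylase Acaca (-0.24) and Fasn (-0.18).

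No library held more than 48 UMIs of Lss in any of the 9 classes, and in all cells the 95% interval of its fold change is wider than the distance from 0 to 0.58. Lss, Fdft1 and Cyp51 overlap 4930483K19Rik, Ctsb and Akap9 on the opposite strand, Hmgcs1, Idi1 and Mvd overlap predicted genes there, and the strand rule of the count is not stated in the sources.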

How the data were processed

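The authors deposited raw UMI counts per gene and cell barcode, made with Cell Ranger 3.0.2 against mm10 according to the submitters' processing notes. Barcodes with at least 200 genes were kept. Removing 32 barcodes with over 20% globin UMIs as red blood cells was decided after the data were seen. Cells were clustered with Seurat 5.3.0 in R 4.3.3 (canonical correlation integration, 2000 variable genes per library, 50 dimensions, resolution 0.2). Clusters were named from fixed marker lists by rules set after they were seen: at least 3 markers among 10 leading genes, or at least 80% of the markers higher than elsewhere. UMIs were summed per library and class and tested with edgeR 4.0.16 (TMM, filterByExpr by genotype, quasi-likelihood F test, Benjamini-Hochberg) at an adjusted p under 0.01, beside DESeq2 1.42.0. The code was tested on simulated data. The genes and lists were chosen with earlier results of these data known. Named from each list are the 3 tested genes with the largest absolute fold change and any called, and beside Lss the 3 segment genes next above and below it. Alternatives were another normalization, filter, threshold, block, resolution and gene set for clustering, removal of doublets (Scrublet in scanpy 1.11.5) or of cells over 20% mitochondrial, thinning, fixed composition and each library left out. Poisson intervals cover counting error only. Free RNA was not estimated, since empty droplets are not among the files. Gene positions come from GENCODE for GRCm38.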

Additional observations from a re-analysis of the deposited data

Results flagged for a closer look

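Apod, a lipid carrier of the lipocalin family in the transport list, differed between classes in its genotype difference (edgeR F test over 9 classes, adjusted p = 2.57e-07), the 1 gene called of the 48 list genes tested. Of all 10775 genes tested, 44 were called (0.408%). Apod is also among the markers used to name oligodendrocytes and among the variable genes used for clustering. Oligodendrocytes, where it is most abundant, had 3835 and 2654 CPM in the WT and 4082 and 2625 in the Dp2Yey libraries, and the genotypes overlapped. Astrocytes had 4.13, 8.23, 100 and 10.7 CPM in the same order, endothelial cells 771, 304, 250 and 916, and border macrophages 29.0, 401, 0 and 129. Within classes that allowed a test the log2 fold change was 0.041 in oligodendrocytes, -0.29 in neurons and 0.20 in endothelial cells. The adjusted p was 3.30e-06 without called doublets, 1 with only the 6 classes of at least 25 cells in every library, and between 2.35e-10 and 1 when each library was left out, with 1 reached without WT replicate 2. The test has library as a term but treats the class sums of a mouse as otherwise independent, and it pooled the spread over all genes (16 residual degrees of freedom per gene), so this call from 4 mice is a screen. These alternatives for Apod were chosen after seeing the data.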

How the results depend on the processing

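No alternative brought an enzyme past the threshold. The Lss fold change in all cells kept its sign in every setting, between 0.40 with composition held fixed and 0.53 with sums thinned to the smallest library, and between 0.12 and 0.77 when each library was left out. Of the results compared, 324 were counted as the same, 10 as moved, 4 as reversed and 2 as weaker. For Lss, the same meant the same sign and side of the threshold, and the 4 reversals were of Lss. Medians of the other enzymes were judged only by the size of the move against the spread. A median could therefore change sign and count as the same. Counts of enzymes called had little room to move, since none was called in the main setting.

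Lss in oligodendrocytes was -0.051 with thinned sums (0.17 otherwise). Lss in astrocytes was 0.25 without cells over 20% mitochondrial (-0.047 otherwise) and -0.079 to 0.023 when each library was left out. The median of the other enzymes was 0.36 in oligodendrocytes and 0.58 in microglia with thinned sums, and 0.52 in neurons without cells over 20% mitochondrial. In the last 2 of these Hmgcs1 alone could be tested, and it was 0.52 in microglia and 0.62 in neurons otherwise, so those medians compare different genes. When each library was left out the median spanned -0.022 to 0.42 in all cells, -0.10 to 0.44 in oligodendrocytes, -0.62 to 0.14 in precursors, 0.016 to 0.48 in microglia, -0.59 to 0.42 in neurons (over 3 to 5 genes) and -3.09 to 0.10 in ependymal cells. The -3.09 is no measured fold change, since the Dp2Yey library left in had 0 UMIs of Hmgcs1. Apod lost its call in the 6 classes of at least 25 cells (adjusted p = 1) and without WT replicate 2 (1). The cause was not tested. Leaving out a library for the genotype by class test and for Apod was chosen after seeing the data, as were the other alternatives for Apod. A lone library is then assumed to vary like the others.

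With the replicate block Lss was 0.42 in all cells, 0.13 in oligodendrocytes and -0.050 in astrocytes. The median of the other enzymes was 0.11 in all cells, 0.0050 in oligodendrocytes (-0.0033 without the block), -0.22 in precursors, 0.010 in astrocytes, 0.35 in microglia and -0.20 in neurons, and 0 of the 8 were called. The difference between replicates 1 and 2 in WT and the same difference in Dp2Yey had a correlation over genes of 0.00227 in all cells. By class it ran from 0.0095 in astrocytes and 0.0542 in neurons to 0.253 in oligodendrocytes and 0.406 in choroid plexus cells. Which replicates shared a preparation day is not known.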

Other observations

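UMIs of the enzymes were also counted in barcodes outside the 9 classes. Free RNA was not estimated, so the lowest of these counts cannot be told apart from it. An unnamed cluster of 186 cells was led by Igfbpl1, Sox11 and Neurod1, genes of young neurons, together with Top2a and Ube2c, genes of dividing cells. Its summed level of the 8 enzymes was 304 ± 54.6 CPM (mean ± SD, n = 4 libraries), and 143 ± 40.2 UMIs per 100 cells, against 231 ± 43.4 CPM and 64.4 ± 15.2 UMIs per 100 cells in the neuron class. On the CPM scale the ranges of the cluster and the neurons overlapped, although the cluster lay above the neurons within each library. Per 100 cells every library of the cluster lay above every library of the neurons. Within it Fdft1 had 47.9 and 50.8 CPM in the WT and 94.9 and 50.9 in the Dp2Yey libraries, and Lss had 0 and 4.62 in the WT and 27.9 and 5.09 in the Dp2Yey libraries, from 0, 1, 5 and 2 UMIs. Dp2Yey replicate 1 was the highest library for both genes, as it was for Lss in neurons.

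Cajal-Retzius-like cells, early-born neurons marked by Reln and Trp73, numbered 51, with fewer than 10 in some libraries, and had a summed level of 204 ± 96.9 CPM. A cluster of 571 barcodes with a median of 802 UMIs and no class name had 30.8 ± 9.40 CPM against 44.3 ± 5.83 in microglia, from 17 UMIs of the 8 enzymes in all. The ranges overlapped, and in WT replicate 2 the cluster lay above microglia (44.3 against 38.8 CPM). T cell-like and natural killer cell-like cells numbered 22 and held 5 UMIs of the 8 enzymes.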
